A study of Mus musculus with 24 samples.

Results

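Mitochondrial ribosomal protein mRNAs were described here as a group in mouse pancreas organoids. The members were the entries of the deposited gene table whose single symbol was Mrpl or Mrps followed by a number, with an optional letter, and whose count was above 0 in all 24 libraries. This gave 69 members (43 Mrpl and 26 Mrps) among 11439 genes tested. All 69 single-symbol entries with such a name passed the filter, and the lowest count of any member in any library was 390. Another 8 entries joined a member of the family with a neighbouring gene under one name, and these were not counted as members.

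The organoids, which are cultures of epithelial cells grown in a gel matrix, were of 2 types. N organoids came from normal pancreatic ducts of wildtype C57Bl/6J mice. KP organoids came from pancreatic tumours of C57Bl/6J mice that carried engineered tumour alleles, among them p53 R172H, each behind a stop cassette that Pdx1-Cre removes in cells of the pancreatic lineage, so the tumour alleles arose in the epithelium from development onward. Each type received vehicle (DMSO) or 10 nM CR-31, labelled CR1-31-b, for 1 h, in medium without EGF and N-acetylcysteine. CR-31 is a rocaglate, a compound that clamps the RNA helicase eIF4A onto mRNA and so blocks its work in translation initiation. From each lysate, total mRNA was set aside before a sucrose gradient, and gradient fractions in which mRNAs carried at least 3 ribosomes were pooled as polysome-associated mRNA. Each of the 4 conditions had 3 replicates, which gave 12 lysates, 24 libraries and 8 groups of 3. The labels do not say whether replicates were separate cultures or mice, so p-values measure only the spread between these samples, which may be technical.

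The mitochondrial ribosome makes the few proteins that mitochondrial DNA encodes, all of them subunits of the respiratory chain or of ATP synthase. Its RNAs come from mitochondrial DNA, but its proteins are encoded in the nucleus, made on cytosolic ribosomes and imported. The polysome-associated mRNA measured here is therefore mRNA on cytosolic ribosomes, on its way to becoming parts of another ribosome. Some of these proteins have a bacterial counterpart, and others were added during the evolution of mitochondria. By this division the members comprised 27 conserved and 18 mitochondria-specific proteins of the large subunit, and 15 conserved and 8 mitochondria-specific proteins of the small subunit. Mrps18a and Mrps18b were counted as mitochondria-specific, although they are relatives of a bacterial protein. Mrps36 stood apart because it is now known as a subunit of the oxoglutarate dehydrogenase complex.

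The genes of mitochondrial ribosomal proteins are known to have short promoters with sites for a few activators. Promoter sequences from RefSeq (GRCm38.p6, 250 bases before to 50 after the annotated start) were found for 61 of 69 members, on 16 chromosomes. Mrpl13, Mrpl15, Mrpl38, Mrpl4, Mrpl54, Mrps28, Mrps34 and Mrps35 had no entry. Both strands were searched for 3 sets of letters. These were CCGGAAG, the core bound by ETS factors such as GABP, GCATGCGC, the type of site bound by NRF-1, and AAGATGGC, the type bound by YY1. A gene with several listed promoters counted once, with a match in any of them. The ETS core was found for 23 of 61 members (37.7%), against 19.2% of 8849 genes tested and 9.93% of 27025 genes in all. The YY1 type lay in 11 (18%), against 5.11% of genes tested, and the NRF-1 type in 8 (13.1%), against 5.9%. Other lists held these letters too, so none is particular to this family. The ETS core was found for 36.8% of cytosolic ribosomal proteins and 13.8% of respiratory complex I subunits. The YY1 type was found for 10.5% and 24.1% of them, and the NRF-1 type for 3.51% and 10.3%. The windows below are shown because they belong to 6 of the 10 members with the lowest adjusted p between KP and N in polysome-associated mRNA. Each is written 5′ to 3′ along the gene, with the match in capitals, and a match in the reverse complement reads CTTCCGG or GCGCATGC.
Mrpl57, ETS core, chr14:57826232-57826260, plus strand: ccccagagagaCCGGAAGcagcgcgccgc
Mrps26, ETS core, chr2:130563732-130563760, plus strand: ctccgcggccaCTTCCGGgccgggcgcag
Mrps27, ETS core, chr13:99344727-99344755, plus strand: tggtaggaccaCTTCCGGcggaggcgggc
Mrps27, YY1 type, chr13:99344789-99344818, plus strand: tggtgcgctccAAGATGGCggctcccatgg
Mrpl17, NRF-1 type, chr7:105811080-105811109, minus strand: gccgagttactGCGCATGCgtcctctgaga
Mrpl10, NRF-1 type, chr11:97041437-97041466, plus strand: cccagctccacGCATGCGCatagcggccct
Mrps7, YY1 type, chr11:115604147-115604176, plus strand: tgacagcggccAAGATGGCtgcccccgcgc

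The windows span only 250 bases before to 50 bases after the annotated start. Between 100 bases before and 50 bases after the start lay an ETS core of 20 of 23 members with one. The same held for an NRF-1 type match of 6 of 8 members and a YY1 type match of 8 of 11. The median positions were 22.5 bases before the start for the ETS core, 49.5 before it for the NRF-1 type and 14 after it for the YY1 type. In Mrpl17 a further ETS core lay 237 bases before the start, away from its NRF-1 type match at 11 bases before it. Of the other 4 members in that set of 10, Mrpl54 and Mrpl4 had no entry, and the promoter windows of Mrpl28 and Mrpl12 held none of these letters. The YY1 type match of Mrps27 began 14 bases after the start. Its annotated 5′ leader, the mRNA before the coding sequence, was 17 nucleotides, so these letters may overlap the start codon. A match is a description of letters and was not tested as a binding site.

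Libraries held 47308461 to 267463046 counts, and no member fell below 390 counts in any of them. KP and N libraries were never sequenced on the same lane, so organoid type and lane cannot be told apart in any comparison of KP with N. Within each type, vehicle 1, vehicle 2 and CR-31 replicate 1 shared a lane, and vehicle 3 and CR-31 replicates 2 and 3 shared another. All 10 duct epithelial markers were present, summing to 7220 to 13300 CPM (counts per 1e6 counts, scaled between libraries) in N and 4860 to 8890 in KP libraries. Of 7 acinar markers Cpa1 was at 0 and the sum was at most 6.48 CPM, the endocrine markers Ins1, Ins2 and Gcg were at 0, and the fibroblast sum was at most 1.91 CPM. The sum of 5 immune markers was 170 to 925 CPM in N and 81.5 to 217 in KP, and its part in the differences below was not tested. Replicate 3 of N stood apart in the polysome fraction. Its vehicle and CR-31 libraries had the highest member medians of the N libraries, and results that changed without it are given below.

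Mitochondrial ribosomal protein mRNAs were abundant. In total mRNA of vehicle-treated N organoids their median level was 44.6 RPKM (the authors' level per transcript length and sequencing depth), against 6.56 for all genes tested, and all 69 lay above that median. Mrps21 was highest, with a median of 334 RPKM (replicates 253, 356 and 334), followed by Mrpl33 (236), Mrpl52 (213), Mrpl30 (129) and Mrpl23 (128). Mrps21 and Mrpl33 are small proteins with bacterial counterparts, and Mrpl23 sits at the exit of the peptide tunnel. The lowest levels were those of Mrpl1 (7.44 RPKM), which forms a mobile stalk of the large subunit, Mrpl35 (8.72), Mrps31 (10), Mrpl17 (11.9) and Mrps27 (12.2). The mRNAs of this 1 particle thus spanned levels from 7.44 to 334 RPKM. RPKM divides by transcript length, which in the GENCODE M21 annotation was 7300 nucleotides for Mrpl17 and 418 for Mrpl52. In CPM of the same libraries Mrpl17 was at 90, 88 and 96 and Mrpl52 at 77, 101 and 132. The part of length in the span of RPKM was not tested. Mrps36, outside the ribosome, was at 102 RPKM, and Mrps30, a large-subunit protein in spite of its symbol, at 25.9 RPKM.

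The share of all counts held by the members differed more between organoid types than between treatments. In polysome-associated mRNA of N it averaged 0.345% under vehicle, with libraries from 0.327% to 0.360%, and 0.338% under CR-31, from 0.304% to 0.396%. In KP it averaged 0.525% under vehicle, from 0.455% to 0.597%, and 0.453% under CR-31, from 0.438% to 0.482%. In total mRNA these 4 groups held, in the same order, 0.376%, 0.351%, 0.471% and 0.462%. All 3 vehicle-treated KP libraries lay above all 3 vehicle-treated N libraries in both fractions. The summed level in polysome-associated mRNA was 3726 ± 446 CPM in N and 6291 ± 794 CPM in KP (mean ± SD, n = 3, vehicle), with KP replicates at 6955, 6506 and 5412 CPM. In bulk samples a change in the make-up of the cells and a change of RNA per cell cannot be told apart.

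**Figure D1:**
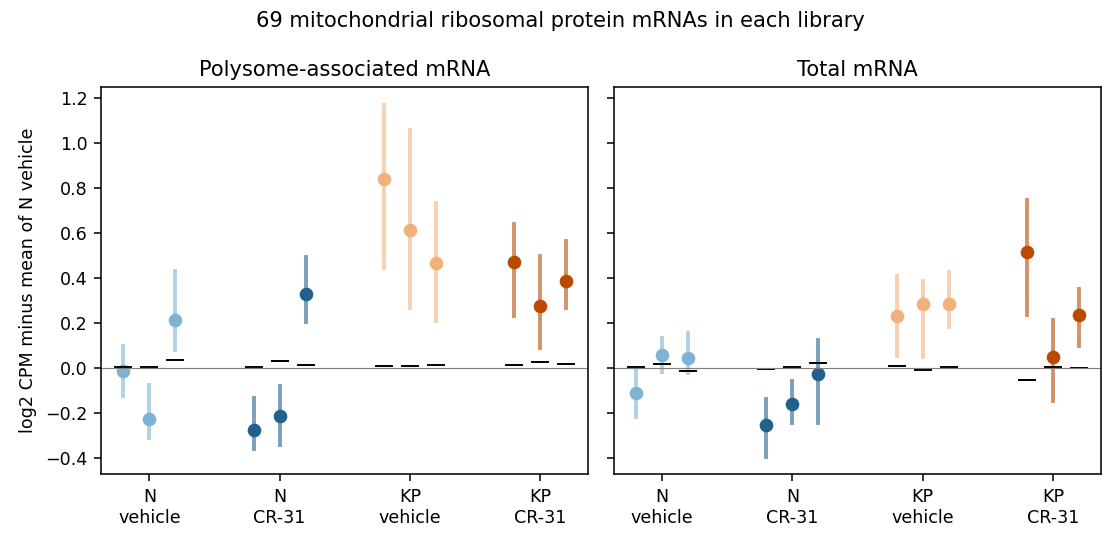
Median over the 69 members (dot) and their quartiles (bar) in each of the 24 libraries, as log2 CPM relative to the mean of vehicle-treated N in the same fraction; the black dash is the median of all genes tested. In polysome-associated mRNA the vehicle-treated KP libraries sit at 0.838, 0.615 and 0.467 and the CR-31-treated KP libraries at 0.470, 0.277 and 0.387, while in total mRNA CR-31-treated KP replicate 1 (0.514) stands above the other 2 (0.0490 and 0.234).

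The first comparison asked which members differ between tumour and normal organoids in the mRNA that is on polysomes. In vehicle-treated KP organoids 44 of 69 members were higher than in N and 0 were lower, at an adjusted p below 0.25 in edgeR's quasi-likelihood test over all 11439 genes. Among all genes tested 20.9% were higher. The median log2 fold change of the members was 0.62, against -0.03 for all genes, and 63 of 69 values were above 0. All 3 KP libraries exceeded all 3 N libraries for 41 members, against 18% of all genes. Members of both subunits rose. Of the conserved large-subunit proteins 16 of 27 rose (median 0.56), of the mitochondria-specific ones 12 of 18 (median 0.60), of the conserved small-subunit proteins 11 of 15 (median 0.84) and of the mitochondria-specific ones 4 of 8 (median 0.61). Mrps36 rose as well.

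Mrpl28, a conserved protein of the large subunit, had the lowest adjusted p. Its polysome-associated mRNA was at 53.4, 42.7 and 62.2 CPM in vehicle-treated N and at 221, 247 and 128 CPM in vehicle-treated KP. The groups did not overlap, and KP replicate 3 was the lowest of its group, yet above 62.2 CPM. The log2 fold change was 1.91 ± 0.29 (SE), with an adjusted p of 0.00359.

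Mrpl57, a short mitochondria-specific protein, was at 52.1, 39.5 and 39.5 CPM in N and at 129, 125 and 93.7 CPM in KP. Every KP library was above every N library, with a log2 fold change of 1.41 ± 0.22 and an adjusted p of 0.00395.

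Mrpl12 forms the flexible stalk that recruits translation factors to the large subunit, and Mrpl10 anchors that stalk. Mrpl12 was at 127, 88.4 and 128 CPM in N and at 415, 360 and 258 CPM in KP, a log2 difference of 1.59 ± 0.28 (adjusted p = 0.0058). Mrpl10 was at 77.6, 73.8 and 85.6 CPM in N and at 162, 180 and 136 CPM in KP, a log2 difference of 1.02 ± 0.22 (adjusted p = 0.0132). Both stalk proteins thus rose without overlap of the groups, Mrpl12 3.01-fold and Mrpl10 2.02-fold.

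Of the other large-subunit members named by adjusted p, Mrpl54 rose from 63.7, 60.1 and 62.4 CPM in N to 140, 154 and 103 CPM in KP. Mrpl17 rose from 83.6, 71.0 and 103 to 188, 211 and 172 CPM. Mrpl4, a protein that lines the peptide exit tunnel, rose from 48.2, 43.3 and 76.5 to 128, 160 and 102 CPM. Their log2 differences were 1.09 ± 0.21, 1.15 ± 0.23 and 1.21 ± 0.25, and their adjusted p-values 0.00783, 0.00943 and 0.0116. In each the highest N library was below the lowest KP library.

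Among small-subunit members the lowest adjusted p belonged to Mrps26, which was at 61.4, 49.5 and 46.7 CPM in N and at 128, 122 and 102 CPM in KP (log2 difference 1.16 ± 0.21, adjusted p = 0.00615). Mrps27, a protein with pentatricopeptide repeats, was at 27.6, 21.9 and 27.8 CPM in N and at 58.0, 59.0 and 49.3 CPM in KP (1.11 ± 0.20, adjusted p = 0.00673). Mrps7, a conserved protein of the head of the small subunit, was at 72.1, 58.5 and 72.9 CPM in N and at 144, 133 and 119 CPM in KP (0.96 ± 0.21, adjusted p = 0.0145). Under vehicle the libraries of these 3 small-subunit mRNAs lay close within each type and did not overlap between types. The 3 were chosen by their adjusted p, which favours such a pattern.

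**Figure D2:**
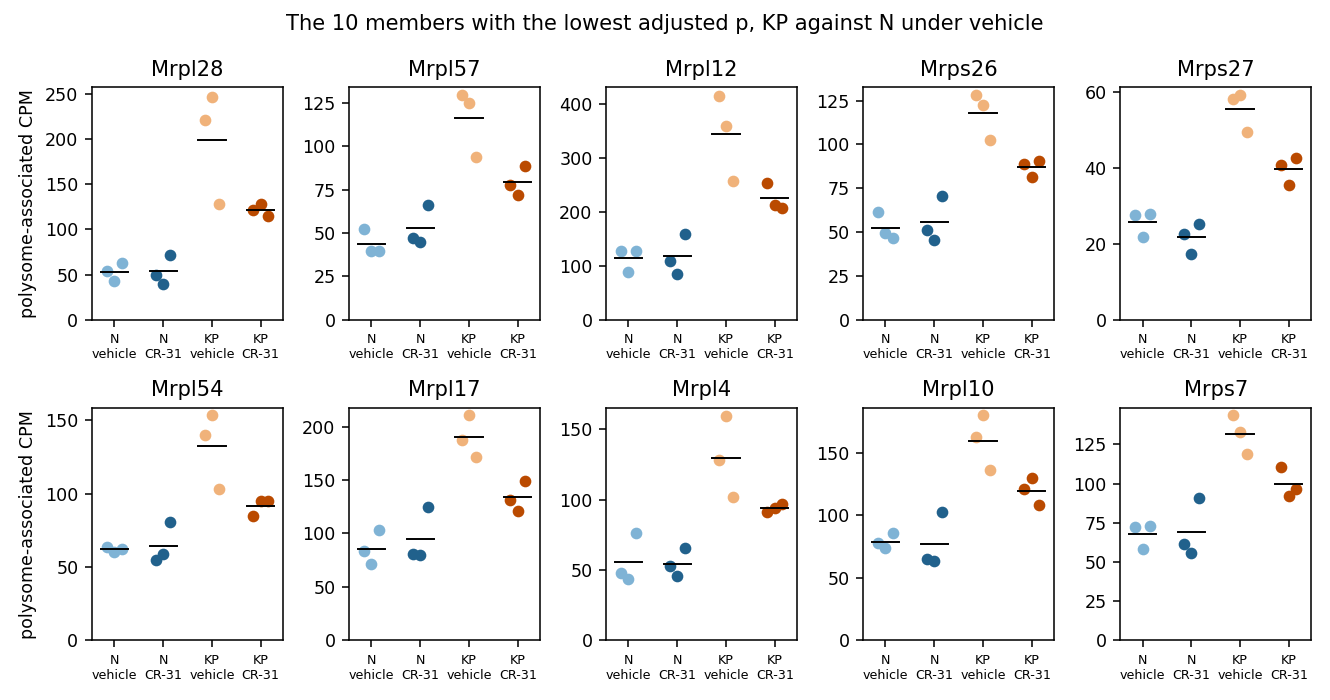
Polysome-associated CPM of the 10 members with the lowest adjusted p between KP and N, in the 4 groups; each point is a library and each black line a mean of 3. For Mrpl28 the N libraries sit between 39 and 72.0 CPM, the CR-31-treated KP libraries between 115 and 128 CPM and the vehicle-treated KP libraries between 128 and 247 CPM.

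Members that were not called included Mrpl1, at 19, 16.7 and 23.1 CPM in N and 19, 13.5 and 14.4 CPM in KP (log2 difference -0.32 ± 0.23, adjusted p = 0.344). Mrps22 was at 13.8, 12.5 and 24.7 CPM in N and 15, 14.8 and 15.3 CPM in KP, where N replicate 3 was the highest of all. Mrps2, a conserved small-subunit protein, lay between 51.1 and 53.7 CPM in N and between 49.3 and 51.4 CPM in KP. With upper-quartile scaling Mrpl1 was called lower, the 1 member called lower under any setting of this comparison, and 39 were called higher.

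The family of Mrps18 holds 3 relatives of 1 bacterial protein. Mrps18a, which sits in the large subunit, was at 55.9, 43.7 and 77.5 CPM in N and 121, 113 and 88.4 CPM in KP (log2 difference 0.86 ± 0.27, adjusted p = 0.0508). Mrps18b was at 59.7, 36.8 and 56.0 CPM in N and 102, 94.5 and 82.6 CPM in KP (0.87 ± 0.26, adjusted p = 0.0425). Mrps18c, the relative at the conserved position, was at 34.2, 26 and 34.7 CPM in N and 61.4, 31.9 and 35 CPM in KP (0.44 ± 0.28, adjusted p = 0.299). The former pair rose and Mrps18c did not pass the threshold, with its KP and N libraries overlapping. Mrps36 was at 57.7, 49 and 55.9 CPM in N and 107, 74.5 and 85.0 CPM in KP (0.71 ± 0.24, adjusted p = 0.0673). Mrps30 was at 26.2, 29.4 and 57.5 CPM in N and 34.7, 55.4 and 37.3 CPM in KP, overlapping (0.17 ± 0.30, adjusted p = 0.732).

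The call count of 44 became 30 without KP vehicle replicate 1 and 54 without N vehicle replicate 3, and 20 at an adjusted p below 0.05. DESeq2 called 43 members. The share of all genes called under these settings is not given, so these counts show only how far the calls depend on the setting.

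In total mRNA fewer members were called. Of the 69, 14 were higher in KP than in N and 0 lower, beside 13.1% of all genes tested called higher. The median log2 fold change was 0.24, and 61 of 69 values were above 0. All KP libraries lay above all N libraries for 31 members, against 15.9% of all genes. They lay below for 1, Mrpl44, named here after its values were seen, and the share of all genes lying below is not given. By class 7 of 27 conserved and 2 of 18 mitochondria-specific large-subunit mRNAs rose, and 3 of 15 and 2 of 8 of the small subunit. All 14 were among the 44 called in polysome-associated mRNA from the same lysates, which is 31.8% of the 44.

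Mrpl12 was at 123, 110 and 126 CPM in total mRNA of N and at 232, 240 and 204 CPM in KP, a log2 difference of 0.91 ± 0.22 (adjusted p = 0.0248). Mrpl28 was at 54.8, 55.2 and 51.0 CPM in N and at 113, 119 and 91.6 CPM in KP, a log2 difference of 1.01 ± 0.24 (adjusted p = 0.0258). In both the N libraries lay close together and every KP library was higher. Mrpl57 rose by 0.63 ± 0.19 (adjusted p = 0.0567), Mrps26 by 0.58 ± 0.20 (adjusted p = 0.0907), Mrpl4 by 0.65 (adjusted p = 0.0937) and Mrpl20 by 0.76 ± 0.28 (adjusted p = 0.113), all as log2 differences. Mrpl20, a conserved protein with a role in assembly of the large subunit, was at 42.8, 79.8 and 71.9 CPM in N and 107, 117 and 104 CPM in KP. Mrpl28 (SD 0.633 of 4 group means on the log2 scale), Mrpl12 (0.58) and Mrpl20 (0.54) varied most over the groups of total mRNA.

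Mrpl44, a protein with an RNase III fold, went the other way in total mRNA. It was at 46.4, 55.1 and 57.9 CPM in N and at 39, 43.7 and 43.3 CPM in KP, without overlap, and did not pass the threshold (log2 difference -0.34 ± 0.18, adjusted p = 0.261). It was called lower with upper-quartile scaling and without KP CR-31 replicate 1, N CR-31 replicate 3 or N vehicle replicate 1. The call count of 14 in total mRNA rested on few libraries, and was 2 at an adjusted p below 0.05. It was 6 without KP vehicle replicate 1 or without N vehicle replicate 3, 8 without N vehicle replicate 2, and 26 without KP CR-31 replicate 1, which enters the shared estimate of spread. The log2 difference of Mrpl4 was 0.58 and no longer called without N vehicle replicate 3.

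**Figure D3:**
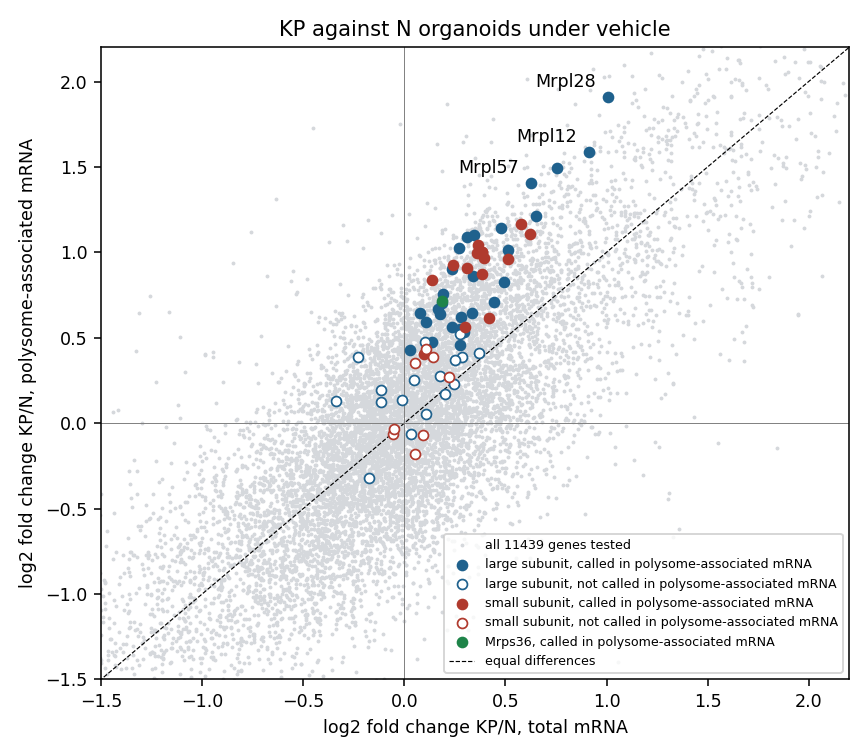
Log2 fold change of KP over N under vehicle in total mRNA (horizontal) and polysome-associated mRNA (vertical), grey for all 11439 genes tested, blue for large-subunit members, red for small-subunit members and green for Mrps36, filled where called in polysome-associated mRNA; the dashed line marks equal change. Most members (61 of 69) lie above the line, with Mrpl28, Mrpl12 and Mrpl57 at the upper end.

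The difference between KP and N was larger in polysome-associated than in total mRNA for 61 of 69 members, and for 5934 of 11439 genes. Across members the 2 differences were related with Pearson's r 0.846 and Spearman's rho 0.817 (n = 69), and across all genes with 0.88 and 0.798. The points share their lysates and are not independent replicates. The difference of the differences, that is, the change in translational efficiency, was tested in 1 model over both fractions with a term for each lysate. It gave 0 called members of 69 and 0% of all genes in edgeR, with a smallest adjusted p of 0.434 among members. At an unadjusted p below 0.05 there were 13 members, all higher in KP, beside 5.73% of all genes higher at that p. DESeq2 called 5 members higher (Mrpl57, Mrpl2, Mrps34, Mrpl28 and Mrpl17), beside 1.33% of the 11217 genes to which it gave an adjusted p. The median was 0.36 on the log2 scale and 61 of 69 values were above 0.

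By unadjusted p of that edgeR model, fitted across all genes, the leading members were Mrpl57, Mrpl2, which lies near the catalytic centre, Mrps34, Mrpl28 and Mrpl17. Their log2 differences in efficiency were 0.74, 0.73, 0.66, 0.83 and 0.64. The lowest values were -0.21 for Mrps22, -0.18 for Mrpl1, -0.14 for Mrps31, -0.12 for Mrpl47 and -0.05 for Mrps2. None of these 5 lower values was called, and their signs changed with the lysates left out. Without N vehicle replicate 3 the values were 0.21 for Mrps22 and 0.14 for Mrps31. Mrpl1 was at 0.033 without both lysates of N replicate 3, and Mrpl47 at 0.015 without KP vehicle replicate 3.

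The count of called efficiency changes depended on the model and on N replicate 3. When total mRNA was instead entered as a covariate of polysome-associated mRNA, limma called 12 members higher, beside 5.2% of all genes, among them Mrpl28, Mrpl57, Mrpl10, Mrpl2, Mrpl34, Mrps21 and Mrps11. Without N vehicle replicate 3 the edgeR test called 19 members higher, beside 8.36% of all genes. Without both lysates of N replicate 3 it called 42 members higher, beside 20% of all genes. N replicate 3 was set apart by the members' own polysome values, so counts without it are no independent evidence of direction.

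Other genes of mitochondrial translation were read from lists, beside 20.9% of all genes tested called higher and 22.2% called lower in polysome-associated mRNA. Of 5 mitochondrial ribosomal proteins with another symbol, 4 rose in polysome-associated mRNA of KP (median 0.75), namely Aurkaip1 (log2 difference 1.28), Chchd1 (0.80), Ict1 (0.75) and Dap3 (0.57). Of 10 translation factors 2 rose and 2 fell (median -0.03), shares near those of all genes. Those that rose were the elongation factor Tufm (0.70) and its exchange factor Tsfm (0.89), and those that fell were Mtif2 (-0.61), the initiation factor, and Guf1 (-0.64). Of 19 mitochondrial aminoacyl-tRNA synthetases, which charge tRNAs in the organelle, 7 rose and 0 fell (median 0.28), among them Cars2 (1.00, adjusted p = 0.0074), Vars2 (0.83), Tars2 (0.74) and Sars2 (0.69).

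Of 20 genes for assembly of the ribosome and modification of its RNA, 6 rose and 2 fell (median 0.13). Wbscr16 (0.82) and Rbfa (0.77), a factor in small-subunit maturation, were higher, while Nsun4 (-0.75), a methyltransferase, and Fastkd2 (-0.79) were lower. Of 17 genes for mitochondrial transcription and mRNA stability 3 rose and 2 fell (median -0.14), a share no higher than among all genes, with Tfam, which packages and helps to transcribe mitochondrial DNA, at 0.65 and the poly(A) polymerase Mtpap at -0.55. A further pair of lists stands beside the members for scale. Respiratory complex I subunits rose for 27 of 32 (median 0.78) and cytosolic ribosomal proteins for 24 of 76, with 3 lower (median 0.36). In total mRNA, where 13.1% of all genes were called higher and 15.4% lower, complex I had 8 higher and 1 lower (median 0.31) and cytosolic ribosomal proteins 0 higher and 3 lower (median -0.07). The difference between these lists and the members was not tested.

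In KP organoids CR-31 was read against the same KP vehicle libraries as the comparison of KP with N, so the 2 sets of values are not independent. In polysome-associated mRNA 0 members and 0% of all genes were called in edgeR, and DESeq2 called 0 members. At an unadjusted p below 0.05 in edgeR there were 6 members, all lower, beside 2.4% of all genes lower at that p. The median log2 difference was -0.26, against -0.02 for all genes, and 7 of 69 values were above 0. By replicate pair the median was -0.339, -0.334 and -0.103, with 60, 62 and 41 members lower. Pairs 1 and 3 each shared a lane and pair 2 did not. All CR-31 libraries lay below all vehicle libraries for 23 members (10.5% of all genes), and 36 members were lower in all 3 pairs (30.5% of all genes).

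When CR-31 and vehicle samples of the same number were treated as pairs, separately in N and KP, 23 members were lower and 0 higher in edgeR, beside 11% of all genes called lower. The smallest adjusted p was 0.192. Those called comprised Mrps34, Mrpl28, Mrpl12, Mrps27, Mrpl2, Mrps18a, Mrpl17, Mrpl54, Mrps11, Mrps18b, Mrpl34, Mrpl20, Mrpl37, Mrpl10, Mrps7, Mrpl4, Mrpl57, Mrpl14, Mrps26, Mrpl36, Mrps10, Mrps24 and Mrps5. With the same block 8 complex I subunits and 1 cytosolic ribosomal protein were called lower.

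Mrpl28 was at 122, 128 and 115 CPM after CR-31, against 221, 247 and 128 CPM under vehicle in KP. The paired differences were -0.86, -0.946 and -0.162 on the log2 scale, and the blocked estimate was -0.66 ± 0.18 (adjusted p = 0.192). Mrpl12 was at 255, 214 and 208 CPM after CR-31, against 415, 360 and 258 CPM, with paired differences of -0.704, -0.756 and -0.31 and a blocked estimate of -0.59 ± 0.17 (adjusted p = 0.192). Mrpl57 was at 77.8, 71.7 and 88.6 CPM, against 129, 125 and 93.7 CPM, with paired differences of -0.734, -0.798 and -0.0816 and a blocked estimate of -0.54 ± 0.20 (adjusted p = 0.21). In all 3 mRNAs the pair of replicate 3 had the smallest difference, and KP vehicle replicate 3 was the lowest vehicle library. In N the same mRNAs did not separate by treatment, with Mrpl28 at 49.9, 39 and 72.0 CPM after CR-31.

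The members with the highest values among those that moved one way in every pair were Mrps22 (paired log2 differences 0.27, 0.0107 and 0.352), Mrpl1 (0.0312, 0.0805 and 0.15) and Mrps31 (0.00622, 0.0836 and 0.125). None of the 3 was called with or without the block, and the fitted values of Mrpl1 and Mrps31 were below 0 without KP vehicle replicate 2.

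**Figure D4:**
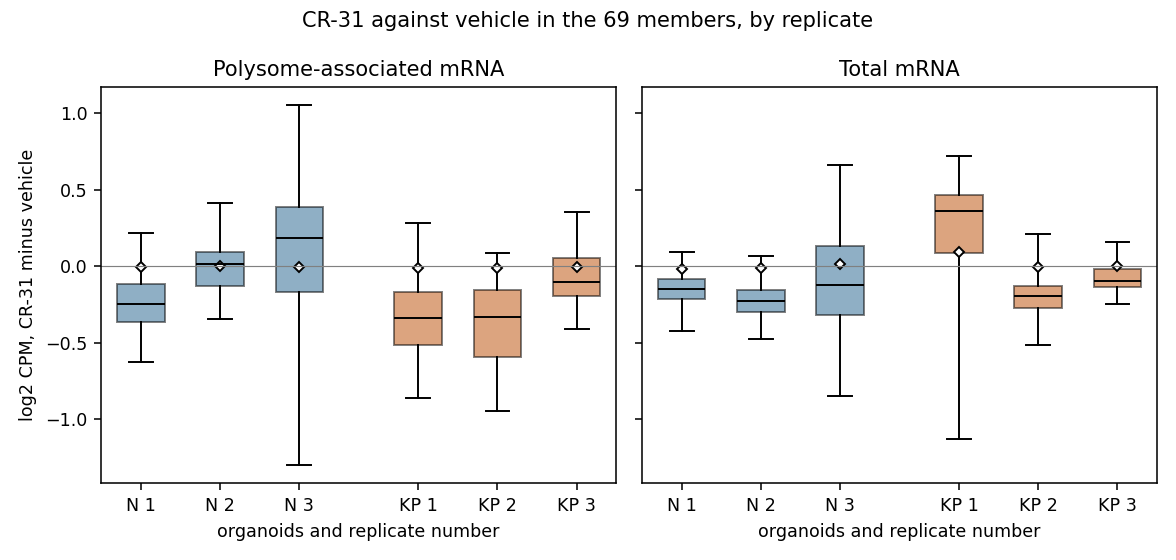
CR-31 minus vehicle, in log2 CPM, over the 69 members in each replicate pair; boxes are quartiles, whiskers the extremes and diamonds the median of all genes. In KP polysome-associated mRNA the member medians are -0.339, -0.334 and -0.103, whereas in N polysome-associated mRNA they are -0.25, 0.014 and 0.186.

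In total mRNA of KP CR-31 gave 0 called members and 0% of genes in edgeR, 0 members at an unadjusted p below 0.05, and 0 in DESeq2. The replicate medians were 0.36, -0.193 and -0.0977, so pair 1 went against the others, and the median over the fit was 0.03, with -0.14 without KP CR-31 replicate 1 and 0.14 without KP CR-31 replicate 2. Mrpl18 was lower in each pair (-0.233, -0.27 and -0.203), as were Mrpl42 and Mrpl21, with fitted log2 differences of -0.24 ± 0.29 and -0.17 ± 0.16. In translational efficiency of KP 0 members and 0% of genes were called in edgeR (smallest adjusted p 0.53), 5 members were at an unadjusted p below 0.05, all lower (3.27% of all genes), and DESeq2 called 0.

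The replicate medians of the change in efficiency in KP were -0.487, -0.0871 and 0.0483. Mrpl17 was lower in each pair (-1.02, -0.579 and -0.0965) and so was Mrps34 (-0.918, -0.484 and -0.232). Mrpl57 had a fitted log2 difference of -0.52 ± 0.22. Mrpl47, Mrpl42 and Mrpl50 were higher in each pair, at 0.36 ± 0.25, 0.31 ± 0.34 and 0.25 ± 0.22. The limma regression on total mRNA, with pairs as a block, called 13 members lower, beside 8.67% of all genes, and put Mrpl42 at -0.52, the opposite sign.

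In N organoids CR-31 gave 0 called members and 0% of genes in polysome-associated mRNA in edgeR, 0 members at an unadjusted p below 0.05 and 0 in DESeq2. The median was 0.01, and ran from -0.26 without N CR-31 replicate 3 to 0.11 without N vehicle replicate 3. It was also below 0 without N vehicle replicate 2, at -0.10. The 1 member with a higher value in each pair was Mrpl2 (log2 difference 0.17 ± 0.26, and -0.087 without N CR-31 replicate 3). Mrpl1 was lower in each pair (-0.355, -0.213 and -0.698), and so were Mrpl47 (-0.26 ± 0.35) and Mrps27 (-0.25 ± 0.20). In translational efficiency of N 0 members and 0% of genes were called in edgeR, 0 members at an unadjusted p below 0.05 and 0 in DESeq2. The median was 0.12, and -0.016 without N CR-31 replicate 3, -0.0013 without N vehicle replicate 2 and 0.23 without N CR-31 replicate 2. The highest values with 1 direction were those of Mrpl34 (0.38 ± 0.31), Mrpl36 (0.29 ± 0.25) and Mrps12 (0.29 ± 0.25), the last a protein of the decoding centre, and the lowest that of Mrpl1 (-0.49 ± 0.35). In the regression with pairs as a block the former 3 were at -0.23, -0.22 and -0.022, the opposite sign.

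In total mRNA of N no member was called. The median log2 difference was -0.18, or -0.10 without N CR-31 replicate 1 and -0.23 without N CR-31 replicate 3. Replicate medians were -0.147, -0.228 and -0.126 with 4, 2 and 23 members higher, and 44 of 69 members were lower in all 3 pairs, against 23.1% of all genes. All CR-31 libraries lay below all vehicle libraries for 9 members, against 3.23% of all genes. In edgeR 0 members and 0% of genes were called, with 1 member lower at an unadjusted p below 0.05 (0.717% of all genes), and DESeq2 called 0. Mrps5, a conserved small-subunit protein, was lower by pair at -0.423, -0.477 and -0.268, Mrpl18 at -0.158, -0.186 and -0.847, and Mrpl52 had a fitted difference of -0.38 ± 0.23. The median of cytosolic ribosomal proteins in the same test was -0.46.

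Whether CR-31 acted differently in KP and N was tested as the difference of its effects. In polysome-associated mRNA, in total mRNA and in translational efficiency 0 members and 0% of genes were called in edgeR, with 1, 0 and 4 members at an unadjusted p below 0.05. The 1 member and the 4 members were lower, beside 1.66% and 5.04% of all genes lower at that p. Without N CR-31 replicate 2 the edgeR test of translational efficiency called 3 members lower, beside 6.85% of all genes. The median differences, KP minus N, were -0.27, 0.18 and -0.37 on the log2 scale. With 1 lysate left out the first ran from -0.36 without N CR-31 replicate 1 to -0.03 without N CR-31 replicate 3, and was -0.13 and -0.16 without KP vehicle replicate 1 and KP CR-31 replicate 2. The second ran from 0.04 without KP CR-31 replicate 1 to 0.28 without KP CR-31 replicate 2. The third was -0.18 without N CR-31 replicate 3, -0.23 without N vehicle replicate 2 and -0.48 without N CR-31 replicate 2. DESeq2 called 0 members in either fraction and 2 members lower in translational efficiency, Mrpl17 and Mrps21, whose edgeR estimates were -0.68 ± 0.31 and -0.75 ± 0.36. In that test DESeq2 gave an adjusted p to 1681 genes, of which 14.1% were called lower, and to 8 of the 69 members.

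Under CR-31 the members were higher in KP than in N as well. These libraries deviated together with the vehicle libraries of the same number, so this is no independent repeat of the vehicle comparison. In polysome-associated mRNA 19 of 69 were higher and 0 lower, beside 11.2% of all genes called higher. The median was 0.41, and ran from 0.30 without N CR-31 replicate 1 to 0.63 without N CR-31 replicate 3. In total mRNA 42 were higher and 0 lower, beside 18.9% of all genes. The median was 0.42, and ran from 0.26 without KP CR-31 replicate 1 to 0.52 without KP CR-31 replicate 2. Of the 19, 18 were also among the 42, which is 94.7% of the former and 42.9% of the latter. Mrpl28 differed by 1.18 ± 0.28 in polysome-associated mRNA (adjusted p = 0.0339) and by 1.25 ± 0.24 in total mRNA (adjusted p = 0.0118). Mrpl12 differed by 0.94 ± 0.27 (adjusted p = 0.0633) and 1.12 ± 0.22 (adjusted p = 0.0118). The threshold and single libraries moved these counts. At an adjusted p below 0.05 the 19 became 2, and the 42 also fell. The count of 19 was 4 without KP CR-31 replicate 1 or N CR-31 replicate 2, 8 without KP CR-31 replicate 3, 10 without N CR-31 replicate 1, 30 without N vehicle replicate 3 and 45 without N CR-31 replicate 3. The count of 42 was 20 without KP CR-31 replicate 1. Mrpl1 stood just outside the threshold in total mRNA, at a log2 difference of -0.54 ± 0.30, and was called lower by DESeq2, with upper-quartile scaling, with a replicate block shared by both organoid types and without KP CR-31 replicate 3.

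How far each mRNA was on polysomes was read from polysome-associated against total CPM within a lysate. Since each fraction is scaled to its own total, a ratio compares a member with the other mRNAs of that lysate. In vehicle-treated N organoids 15 members were lower on polysomes and 0 higher, beside 6.36% of all genes called lower, with a median log2 ratio of -0.25. In CR-31-treated N 14 were lower and 0 higher (10.7% of all genes lower, median -0.13), and in CR-31-treated KP 6 were lower and 0 higher (6.5% of all genes lower, median -0.11). In vehicle-treated KP 16 were higher and 8 lower, beside 14.2% and 13.3% of all genes, with a median of 0.03. With 1 lysate left out at a time these medians ran from -0.33 to -0.10 in vehicle-treated N, the latter without its replicate 2, from -0.27 to -0.01 in CR-31-treated N, the latter without its replicate 2, and from -0.16 to -0.03 in CR-31-treated KP, the latter without its replicate 1. In vehicle-treated KP the median ran from -0.04 without its replicate 1 to 0.14 without its replicate 3, so its sign rested on 1 lysate.

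Those higher on polysomes in vehicle-treated KP included Mrpl28 (log2 ratio 0.74 ± 0.20, adjusted p = 0.0741), Mrpl17 (0.48 ± 0.16), Mrpl12 (0.49 ± 0.17), Mrps34 (0.46 ± 0.16) and Mrps26 (0.49 ± 0.17). Those lower were led by Mrps2 (-0.45 ± 0.12, adjusted p = 0.0776) and included Mrps9, Mrpl47, Mrpl35, Mrps22, Mrps5, Mrpl32 and Mrps30. The 8 lower are 11.6% of the members, a share no higher than the 13.3% of all genes. In vehicle-treated N the lowest adjusted p was that of Mrps5 (-0.57, adjusted p = 0.0432). These counts rested on single lysates and on the setting. Nearly all calls ended without the lysate block or at an adjusted p below 0.05. The counts rose without both lysates of N replicate 3, and these values are given below. With 1 lysate left out they reached at most 22 and 20 in N (vehicle, CR-31) and 31 and 7 in KP. The 15 became 0 without N vehicle replicate 2 and 9 without N CR-31 replicate 1 or 2, KP vehicle replicate 3, or KP CR-31 replicate 2 or 3. The 14 became 3, 2 and 6 without N CR-31 replicate 1, 2 and 3. The 24 calls in vehicle-treated KP became 0 without its replicate 1 or 2 and 7 without its replicate 3, and the 6 became 0 and 2 without KP CR-31 replicate 1 and 3.

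The member medians by lysate were -0.187, -0.512 and -0.0575 in vehicle-treated N, -0.245, -0.316 and 0.134 in CR-31-treated N, 0.210, 0.0756 and -0.125 in vehicle-treated KP and -0.309, -0.0127 and -0.0875 in CR-31-treated KP. Lysates of 1 group thus differed by as much as groups did. Averaged over the 12 lysates, the lowest log2 ratios were those of Mrps30 (-0.573), Mrps22 (-0.56), Mrpl32 (-0.434), Mrps5 (-0.433) and Mrps2 (-0.406), and the ratio of the last 3 was below 0 in 12 of 12 lysates. The highest were those of Mrps26 (0.219), Mrpl28 (0.2), Mrps24 (0.158), Mrps16 (0.12) and Mrpl23 (0.118).

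The members are short mRNAs. In the GENCODE M21 annotation their median coding length was 603 nucleotides, against 1386 for 11395 genes tested with a length, and ran from 198 to 1329, while the median 5′ leader was 91 nucleotides against 167. Across members longer coding sequences went with a lower mean log2 ratio of polysome to total (r -0.28, rho -0.264, n = 69), whereas across all genes the sign was the opposite (r 0.217). Split into 3 sets of 23 by coding length, the median log2 difference between KP and N in polysome-associated mRNA was 0.707 for members of 198 to 480 nucleotides, 0.592 for 483 to 765 and 0.385 for 774 to 1329. In total mRNA the same sets had 0.237, 0.302 and 0.202, with no order by length. The CR-31 difference in polysome-associated mRNA of KP was -0.361, -0.264 and -0.166. Both relations were also present over all genes with a length. For KP against N on polysomes Pearson's r with coding length was -0.308 and rho -0.346 over members, against -0.185 and -0.255 over all genes. For CR-31 in KP they were 0.259 and 0.261 over members, against 0.355 and 0.409 over all genes. These are descriptions over mRNAs of the same libraries, and the part of length in the differences between groups was not tested.

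**Figure D5:**
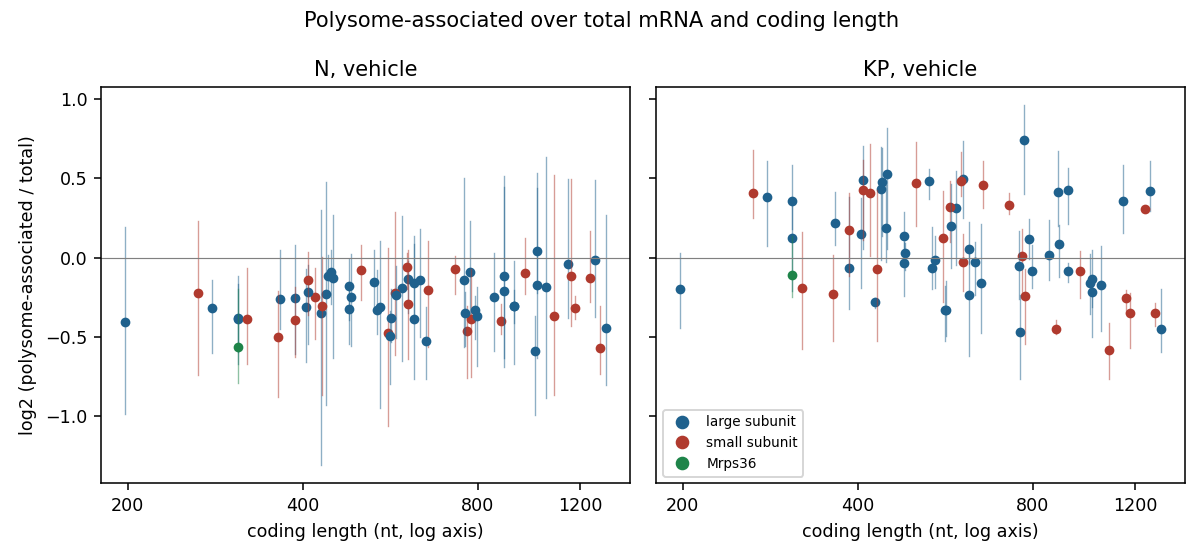
Mean log2 ratio of polysome-associated to total CPM against coding length in nucleotides (log axis) for the 69 members in vehicle-treated N and vehicle-treated KP; bars run from the lowest to the highest of 3 lysates. The member median is -0.25 in N (-0.33 to -0.10 with 1 lysate left out) and 0.03 in KP (-0.04 to 0.14), and coding lengths run from 198 to 1329 nucleotides.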

How the data were processed

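The deposited table held mouse gene counts and RPKM side by side for 24 libraries of polysome-associated and total mRNA. The authors aligned paired reads with HISAT2, handled alignments with SAMtools, discarded reads with several positions and counted reads per RefSeq gene. The RPKM values, scaled for transcript length and mapped reads, were deposited by the authors and used here for levels between genes only. The processing notes name hg38 and GRCh38, human builds, although the entries are mouse RefSeq genes, so the build of the alignment is uncertain and no coordinates of the counted genes are given. Of 19895 entries, 1042 carried several symbols and 18 duplicates were dropped. The 11439 genes counted at least once in each of the 24 libraries were tested in edgeR 4.0.16 (R 4.3.3, limma 3.58.1) on the deposited counts, with TMM scaling, the quasi-likelihood test and Benjamini-Hochberg adjustment over all genes. A call is an adjusted p below 0.25, the threshold of the study. Each fraction was fitted over its 4 groups without a replicate term. CR-31 and vehicle samples of 1 number thus entered the estimate of spread as separate samples. Translational efficiency and polysome against total were fitted over both fractions with a term for each lysate. The CPM printed per library are TMM-scaled, with a prior count of 0.5 on the log2 scale. A test of differences between replicates gave chi-square values of 251 to 1512 per gene, so no pair of replicate libraries held the same counts.

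Replicate numbers were checked by the correlation of deviations from group means. CR-31 and vehicle samples of 1 number deviated together in N (r 0.554 to 0.892) and in KP (0.455 to 0.803), so the numbers pair these. KP and N samples of 1 number did not (-0.168 to 0.279). The pairing comes from these data and not from the labels. Alternatives were RLE and upper-quartile scaling, other filters, DESeq2 1.42.0, a threshold of 0.05, a regression of polysome-associated on total log2 CPM in limma (the form of the study's Anota2seq model), a lane term, blocks and leaving out each lysate.

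Named members were, for KP against N, the 10 (polysome) and 6 (total) called members with the lowest adjusted p in each direction and the 5 by p in each direction of efficiency. For CR-31 they were the 3 highest and lowest with 1 direction in all 3 pairs. For ratios and levels they were the 5 highest and lowest, and for variation the 3 largest. The Mrps18 relatives, Mrps30 and Mrps36 were named for their structure. Of other lists up to 4 genes were named. The members and lists were chosen with earlier results of these data known, so they are no independent evidence of direction. Scripts were tested on simulated data. Part of the allele set of the KP genotype is not reported here.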

Additional observations from a re-analysis of the deposited data

How the results depend on the processing

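Scaling by RLE and the filterByExpr filter changed no count of called members by over 1.5 times, nor did a lane term within organoid type. At an adjusted p below 0.05 the counts for KP against N became 20 (polysome, vehicle), 2 (total, vehicle), 2 (polysome, CR-31) and 13 (total, CR-31). Those for polysome against total became 1 in vehicle-treated N and 0 in the other 3 groups. The replicate block within organoid type gave 23 calls for CR-31 in KP polysome-associated mRNA in place of 0, and changed no other count in that family. Without the lysate block the counts for polysome against total were 2 and 1 in N, vehicle and CR-31, and 0 and 0 in KP. The unfiltered table gave 8 in vehicle-treated N. Translational efficiency of KP against N gave 5 (DESeq2), 12 (regression on total mRNA) and 18 (regression with a replicate block shared by N and KP). With the block within each organoid type the regression gave 13 for CR-31 in KP, and DESeq2 2 for the difference of CR-31 effects. Leaving out both lysates of N replicate 3 gave 9 (total, vehicle), 53 (polysome, CR-31) and 42 (efficiency, vehicle). For polysome against total it gave 39, 25, 37 and 17 in N vehicle, N CR-31, KP vehicle and KP CR-31. That replicate was set apart by the members' own polysome values. Leaving out 1 lysate at a time, the counts for KP against N ran from 30 to 54 (polysome, vehicle), 6 to 26 (total, vehicle), 4 to 45 (polysome, CR-31), 20 to 45 (total, CR-31) and 0 to 19 (efficiency, vehicle). Those for the difference of CR-31 effects on efficiency ran from 0 to 3, the 3 without N CR-31 replicate 2. Those for polysome against total ran from 0 to 22, 2 to 20, 0 to 31 and 0 to 7 in the same order of groups. All other CR-31 counts stayed from 0 to 0. The median of KP against N ran from 0.49 to 0.68 (polysome) and 0.18 to 0.28 (total) under vehicle, and that for total mRNA under CR-31 was 0.26 without KP CR-31 replicate 1, against 0.42. Counts in this section hold calls in either direction. Where a count under another setting, here or above, stands without a share of all genes, it describes only the dependence on that setting. The cause of the changes between settings was not tested. No called value of a named member changed sign under the settings tried. Of 1054 values of named members under these settings 17 had another sign than the reported value, in 12 of 52 results, none of them called under either setting.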

Other observations

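The 8 joined entries, in which reads of a mitochondrial ribosomal protein gene and of another gene were counted under one name, had log2 ratios of KP to N under vehicle between -0.151 (Mrpl24 with Rrnad1) and 0.906 (Ccdc142 with Mrpl53) in polysome-associated mRNA. All KP libraries lay above all N libraries in both fractions for 2 of them, Ccdc142 with Mrpl53 and Mrpl49 with Syvn1. The reads of each gene in a joined entry cannot be told apart, and these entries were not tested.

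The 5′ leaders of the members were searched for 2 sets of letters that bear on eIF4A and rocaglates, on the sense strand. The run GGCGGCGGCGGC was in 0 of 69 member leaders and in 320 of 11395 leaders of genes tested (2.81%). The purine run GAGAGA was in 3 of 69 (4.35%), those of Mrpl16, Mrpl57 and Mrpl30, and in 8.71% of the leaders of genes tested. The median leader was 91 nucleotides among members and 167 among genes tested, and its part in these counts was not tested.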
